A study of Rattus norvegicus with 10 samples.

Results

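Chac1 and 9 further genes of the integrated stress response (Ddit3, Trib3, Asns, Atf4, Atf5, Sesn2, Psat1, Phgdh and Ppp1r15a) were read from an RNA-seq table of subcutaneous rat muscle, and the members were taken by gene symbol. Of the 10 symbols, 9 were present, as 10 of the 17221 transcripts in the table. Sesn2 was listed under no row of its own name. Chac1 was chosen by its low level in the placebo group at 34 days relative to the group before therapy, so its values in these groups are given as a description and without a test, and the same holds for every member in that comparison. The other members were chosen as known genes of the same response.

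The 10 libraries came from 10 female Wistar rats, 1 animal each, in 5 groups of 2. All animals carried collagen-induced arthritis (labelled RA), brought on with bovine type II collagen in Freund's adjuvant, so that no group was free of the disease or of the adjuvant. The group RA_0 was taken before any therapy. In AP_1h and AP_34d the tissue was taken 1 h and 34 days into acupuncture, a puncture of the lower back and of the leg below the knee with a short needle that was then twirled, and PLA_1h and PLA_34d at the same times under placebo, saline injected into the peritoneum and thus not at the site that was sampled. A different pair of animals was killed at each time, so no animal was followed. The age was not given in the sources used here. The tissue around the punctured points held skin-near muscle with the tissue beside it.

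The integrated stress response is a pathway in which kinases that sense misfolded protein, lack of amino acids, viral RNA or lack of haem phosphorylate the translation factor eIF2. General translation falls, while the mRNA of the transcription factor ATF4 is translated more, and ATF4 with its partners ATF5 and CHOP (the product of Ddit3) then switches on genes for amino acid supply, redox balance and, under long stress, cell death. CHAC1, made by one of the ATF4 targets, cleaves glutathione, the main thiol antioxidant of the cell, and has also been described as an inhibitor of Notch processing. In muscle the response is known from mitochondrial stress, disuse and amino acid shortage.

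ATF4 binds, with C/EBP partners, to a short composite site in the promoters of its targets, and the promoters of the members were searched for its core and for the related cAMP response element. The sequences are those of RefSeq on build GRCr8, where all 10 members had an entry of 300 bases, from 250 bases before to 50 bases after the start. The core TGATGNAA, on either strand (TTNCATCA on the other), was found in Chac1 and Trib3, and the palindrome TGACGTCA in Ppp1r15a. Of 33469 rat promoters of this length, 3.98% held the first and 1.83% the second, and the 2 motifs did not overlap in any member. The other 7 members held neither motif in this window. The 250 bases before the start are shown 5′ to 3′ on the strand of the gene for the 3 genes that held a match. Capitals mark the match.
Chac1, chr3:126795881-126796130, plus strand, match from 167 to 160 bases before the start: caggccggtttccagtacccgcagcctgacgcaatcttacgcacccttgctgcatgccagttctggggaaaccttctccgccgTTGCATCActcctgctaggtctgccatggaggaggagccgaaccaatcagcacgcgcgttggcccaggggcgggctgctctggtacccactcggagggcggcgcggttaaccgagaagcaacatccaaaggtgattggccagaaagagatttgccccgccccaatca
Trib3, chr3:161275534-161275783, minus strand, match from 21 to 14 bases before the start: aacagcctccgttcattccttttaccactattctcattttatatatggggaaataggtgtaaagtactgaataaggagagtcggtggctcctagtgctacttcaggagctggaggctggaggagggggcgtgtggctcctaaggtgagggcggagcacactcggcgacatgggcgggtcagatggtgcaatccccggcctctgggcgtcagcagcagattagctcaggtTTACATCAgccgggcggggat
Ppp1r15a, chr1:105139597-105139846, minus strand, match from 66 to 59 bases before the start: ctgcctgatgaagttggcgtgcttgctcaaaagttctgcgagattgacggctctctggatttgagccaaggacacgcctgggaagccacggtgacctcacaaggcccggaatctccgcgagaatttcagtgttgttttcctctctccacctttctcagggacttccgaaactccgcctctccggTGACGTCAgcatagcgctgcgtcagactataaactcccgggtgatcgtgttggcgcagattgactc
These matches describe the letters of the reference only. No binding was measured in these animals.

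Levels are given in CPM, the reads of a transcript relative to the size of its library, as scaled by the authors. The libraries held between 5371687 and 8899521 reads, and 1 CPM was worth 4.19 to 10.1 of them. With no read at all, a level of up to 0.297 to 0.716 CPM would still be allowed (3 reads, counting error only). Replicates of a group differed by far more than sampling noise, with a chi-square per transcript between 42.3 and 105. Muscle fibre markers summed to between 132940 and 355898 CPM in the 10 libraries, with all 10 listed genes measured and none at 0, so muscle RNA was present throughout, as labelled. Replicate 1 of PLA_34d stood apart. Its lymph node markers (8 of 9 listed genes measured, none at 0 in this library) summed to 899 CPM against 20.8 to 70.3 CPM in the other 9 libraries, where Glycam1 was at 0 in 8 of them, and its leukocyte markers to 1009 CPM against 129 to 597 CPM. Slow fibre markers (9 of 9 measured, none at 0) summed to 20131 and 10192 CPM in RA_0 and to 1030 and 1155 CPM in AP_1h. In bulk tissue, fewer cells of a type and less RNA per cell cannot be told apart.

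**Figure D1:**
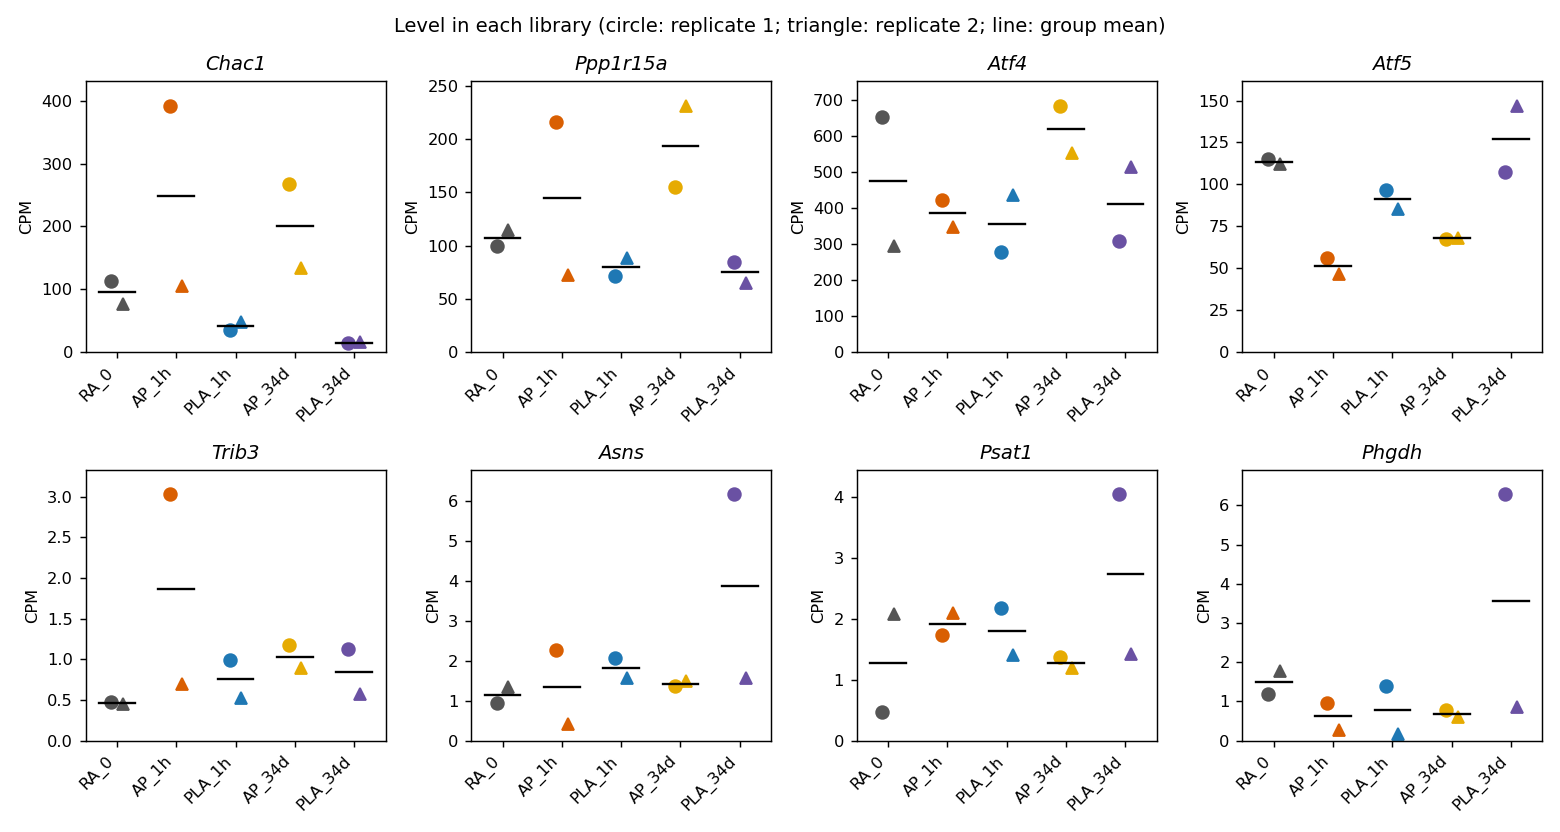
Level in CPM (vertical axes, from 0, each with its own scale) of 8 members in the 5 groups (horizontal axes), where a circle is replicate 1, a triangle replicate 2 and the line the mean of a group. Chac1 was at 13.6 and 15.5 CPM in PLA_34d and at 105 CPM or more in each AP library, Atf5 at 68.1 CPM or less in each AP library and at 85.5 CPM or more in every other, and Asns, Psat1 and Phgdh were highest in replicate 1 of PLA_34d.

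Chac1 (NM_001173437, rn4 chromosome 3, 105870108 to 105873318, plus strand, overlapping no other transcript of the table) was present in every library, with 8502 reads in all. Before therapy it was at 113 and 76.5 CPM. At 1 h it was at 392 and 105 CPM under acupuncture and at 35.4 and 48.3 CPM under placebo. At 34 days it was at 268 and 134 CPM under acupuncture and at 13.6 and 15.5 CPM under placebo, so the lowest of the 4 AP libraries lay above the highest of the 4 PLA libraries. By group mean the order was AP_1h (249 ± 203, SD, n = 2), AP_34d (201 ± 94.6), RA_0 (94.8 ± 25.9), PLA_1h (41.8 ± 9.10) and PLA_34d (14.5 ± 1.36). Of the neighbours in this order, AP_1h and AP_34d overlapped, and the others did not. Replicate 2 of AP_1h, at 105 CPM, also lay below replicate 1 of RA_0.

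The comparison of acupuncture with placebo at 1 h sets needled animals beside saline-injected ones, and its 2 groups did not enter the choice of Chac1. The spread behind the SE and p of limma was estimated over all 5 groups, RA_0 and PLA_34d among them. No untreated group of 1 h was among the 10 libraries, so parts of the needle and of the injection cannot be told apart. The mean of Chac1 was 5.94 times higher under acupuncture. On the scale of log2(CPM + 1) the difference was 2.27 ± 0.56 (SE), with an unadjusted p of 0.00230 and an adjusted p of 0.548 by limma over the 10259 transcripts that passed the filter. It met the rule of the study (unadjusted p under 0.05, at least 2-fold, mean of at least 1 CPM), as did 2.62% of all transcripts tested, and did not pass the adjustment, which no transcript passed in this comparison (0%). DESeq2 on the reads called it, with an adjusted p of 0.00360 against a range from 0.00360 to 1 over the fit reported and its 23 alternatives, in a comparison where DESeq2 called 0.380% of transcripts. edgeR gave an adjusted p of 0.544 and limma-voom 0.653. The size rested on replicate 1 of AP_1h: without it the difference was 1.32, and without replicate 2 it was 3.22. Leukocyte markers (9 of 9 listed genes measured, 1 at 0) summed to 597 and 186 CPM in the 2 AP_1h libraries and to 211 and 188 CPM in those of PLA_1h, and their part in the value of Chac1 was not tested.

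From 1 h to 34 days under acupuncture, the other comparison whose 2 groups did not enter the choice, Chac1 differed by -0.10 ± 0.56 on the log2 scale (limma, adjusted p of 1.00), and the libraries overlapped. In all comparisons that touch RA_0 or PLA_34d the values are a description. Chac1 was 6.52 times lower in PLA_34d than in RA_0, a log2 difference of -2.60 ± 0.56, in a comparison where 2.42% of transcripts met the rule of the study and limma called none (0%). The 2 libraries of PLA_34d held 13.6 and 15.5 CPM of Chac1 and 899 and 37.8 CPM of lymph node markers. The part of lymph node tissue in the values of Chac1 was not tested. At 34 days Chac1 was 13.9 times higher under acupuncture than under placebo, a difference of 3.62 ± 0.56. Under placebo it was 2.88 times lower at 34 days than at 1 h (-1.45 ± 0.56). Relative to RA_0 it stood 1.12 ± 0.56 higher in AP_1h, 1.02 ± 0.56 higher in AP_34d, and in PLA_1h the difference was -1.15 ± 0.56. The difference between the 2 arms at 34 days less that at 1 h was 1.35 ± 0.79. Without replicate 1 of AP_1h it was 2.30, and the difference of AP_1h and RA_0 was then 0.17.

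**Figure D2:**
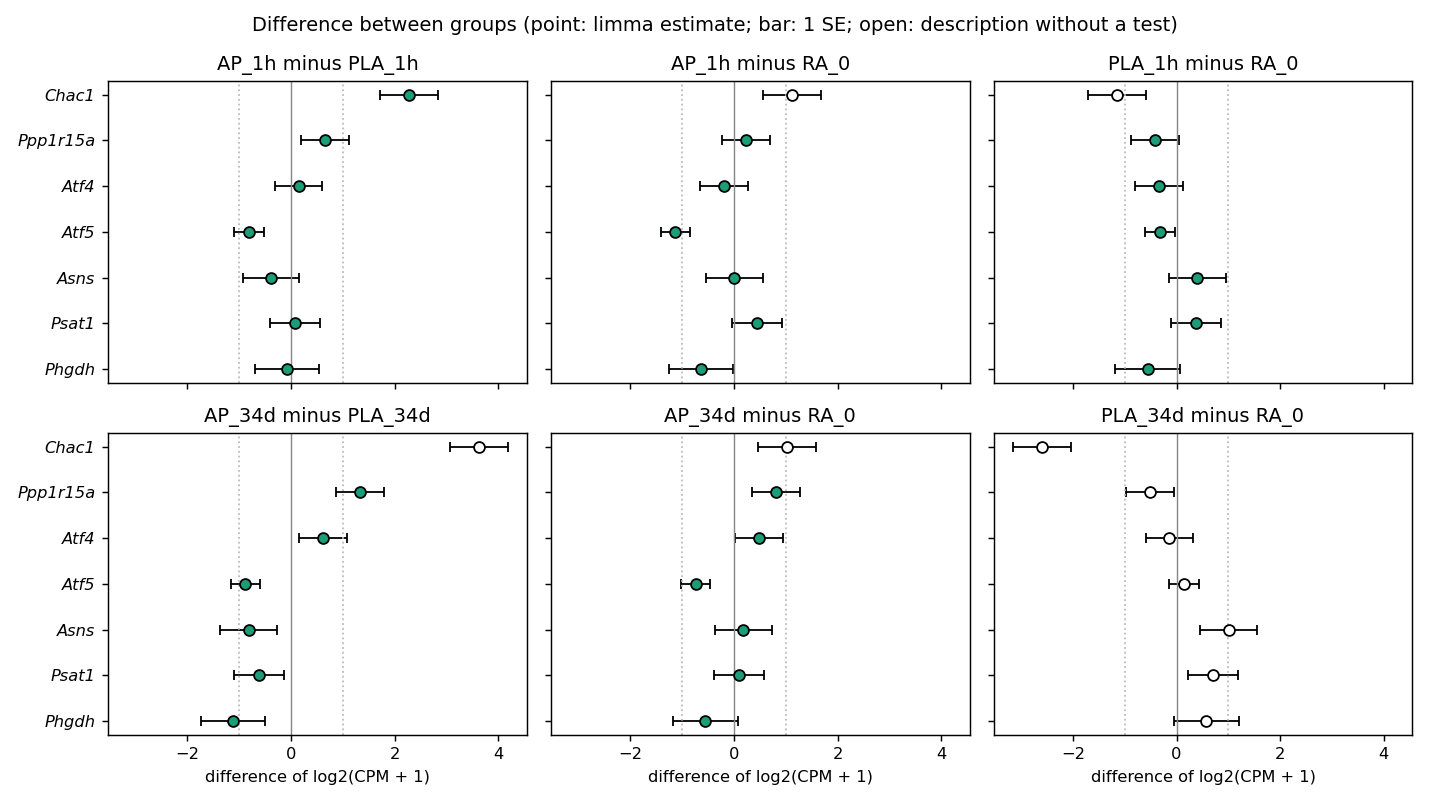
Difference of log2(CPM + 1) between 2 groups (horizontal axes) for the 7 members that passed the filter (vertical axes), with 1 SE from limma as bars, dotted lines at a change of 1 on this scale and open points where the choice of Chac1 used the groups. Chac1 lies farthest from 0 in both comparisons of acupuncture with placebo (2.27 and 3.62), and Atf5 lies below 0 in both (-0.81 and -0.88).

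Of the 10 transcripts, 7 passed the filter (some group with 1 CPM or more in each of its libraries), namely those of Chac1, Ppp1r15a, Atf4, Atf5, Asns, Psat1 and Phgdh, and Phgdh passed through RA_0 alone. Over 8 comparisons, without PLA_34d against RA_0 and without Chac1 where RA_0 or PLA_34d took part, 50 member tests were made. limma called 0 of them, and so did edgeR and limma-voom, while DESeq2 called 2 (4%), beside 0.529% of all transcripts over the same comparisons, and an unadjusted p under 0.05 was reached by 6 (12%). Over all transcripts and the same comparisons, 4.77% reached that p. Of the 6, those of Atf5 were in AP_1h and AP_34d against RA_0 and in both comparisons of the arms. The others were Chac1 in AP_1h against PLA_1h and Ppp1r15a in AP_34d against PLA_34d. The comparisons share libraries, so these counts are not independent of each other. The members were also chosen with earlier results of these data known. In AP_1h against RA_0 limma called 0.0292% of all transcripts, and in each of the other 8 comparisons 0%.

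The first group of members is that of the regulators. Atf4 (NM_024403, rn4 chromosome 7, 118537718 to 118538994, plus strand) encodes the transcription factor at the centre of the response, whose control is mainly by translation, which mRNA levels do not show. It was at 653 and 295 CPM in RA_0, at 423 and 347 CPM in AP_1h, at 277 and 435 CPM in PLA_1h, at 684 and 552 CPM in AP_34d and at 309 and 514 CPM in PLA_34d. Both AP_34d libraries lay above both PLA_34d libraries, and RA_0 spanned nearly the whole range. None of its differences reached 1 on the log2 scale.

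Atf5 (NM_172336, rn4 chromosome 1, 95284511 to 95286786, minus strand), a related factor that is best known for the response to mitochondrial protein stress, was the member with the tightest replicates. It was at 115 and 112 CPM in RA_0, at 56.3 and 46.6 CPM in AP_1h, at 96.6 and 85.5 CPM in PLA_1h, at 67.4 and 68.1 CPM in AP_34d and at 107 and 147 CPM in PLA_34d. All 4 AP libraries lay below all 4 PLA libraries and below both RA_0 libraries. By mean the order was PLA_34d (127 ± 28.0, SD, n = 2), RA_0 (113 ± 2.12), PLA_1h (91.0 ± 7.84), AP_34d (67.7 ± 0.519) and AP_1h (51.5 ± 6.88), and of the neighbours PLA_34d and RA_0 overlapped.

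Atf5 was 2.21 times lower in AP_1h than in RA_0, a log2 difference of -1.13 ± 0.28 with an unadjusted p of 0.00237 and an adjusted p of 0.241 (limma). It was the only one of the 6 members tested there that met the rule of the study or an unadjusted p under 0.05, shares reached by 6.12% and 8.89% of all transcripts. DESeq2 called it with an adjusted p of 0.0320 in a comparison where it called 1.62% of transcripts; over the 23 alternatives and the fit reported, its adjusted p ran from 0.0320 to 0.824. Slow fibre markers moved with this comparison, from 20131 and 10192 CPM in RA_0 to 1030 and 1155 CPM in AP_1h. They were at 4265 and 1873 CPM in PLA_1h, 11225 and 1936 CPM in AP_34d and 20163 and 1746 CPM in PLA_34d. Their part in the values of Atf5 was not tested.

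Atf5 was also lower under acupuncture than under placebo. These 2 differences are below the size set for naming and were singled out after the values were seen. At 1 h the difference was -0.81 ± 0.28 (unadjusted p 0.0159, adjusted p 0.890 by limma), and at 34 days -0.88 ± 0.28 (unadjusted p 0.0105, adjusted p 0.846 by limma). Leaving out 1 library at a time kept them between -0.95 and -0.68 and between -1.11 and -0.66. From RA_0 to AP_34d Atf5 differed by -0.74 ± 0.28 (unadjusted p 0.0257, adjusted p 0.967 by limma). It was 1 of 6 members, Chac1 left out, at an unadjusted p under 0.05 there, where 4.77% of transcripts reached it. None of these 6 met the rule of the study, as 2.82% of transcripts did. Of the 10259 transcripts, 1.27% had all 4 AP libraries above all 4 PLA libraries, as Chac1 did, and 1.56% had them all below, as Atf5 did. This comparison of 4 with 4 was made after the values were seen. For Chac1 it also holds the libraries of PLA_34d, by which the gene was chosen, so its place there is a description.

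Ppp1r15a (NM_133546, rn4 chromosome 1, 95994023 to 95997080, minus strand) encodes GADD34, the subunit that brings a phosphatase to eIF2 and so ends the response. It was at 99.5 and 115 CPM in RA_0, at 216 and 72.6 CPM in AP_1h, at 71.3 and 88.6 CPM in PLA_1h, at 155 and 232 CPM in AP_34d and at 84.9 and 65.2 CPM in PLA_34d. Both AP_34d libraries lay above both RA_0 libraries and both PLA_34d libraries below them, a pattern that 1.40% of all transcripts shared. Chac1 had it as well, but was chosen by PLA_34d and RA_0. At 1 h the libraries of the 2 arms overlapped, since replicate 2 of AP_1h lay between those of PLA_1h. At 34 days Ppp1r15a was 2.57 times higher under acupuncture, a log2 difference of 1.34 ± 0.46 with an unadjusted p of 0.0163 and an adjusted p of 0.846 (limma). It met the rule of the study, as 3.57% of transcripts did, though not without replicate 2 of AP_34d, where the difference was 1.05. DESeq2 gave an adjusted p of 0.228, the lowest of a range from 0.228 to 1.

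Ddit3 encodes CHOP, which drives cell death under prolonged stress. Its 2 transcripts (NM_001109986 and NM_024134) share the coordinates 67247749 to 67252571 on rn4 chromosome 7, plus strand, and overlap Mars. NM_024134 had 0 reads in every library and NM_001109986 had 35 in all, at most 0.954 CPM in a library. Reads that fit more than 1 transcript were dropped when the table was made, so the level of Ddit3 cannot be read from it. Trib3 (NM_144755, rn4 chromosome 3, 142664651 to 142670135, minus strand), a pseudokinase that restrains AKT and ATF4, had 77 reads in all and did not pass the filter. It was at 0.477 and 0.446 CPM in RA_0, 3.03 and 0.700 CPM in AP_1h, 0.991 and 0.526 CPM in PLA_1h, 1.17 and 0.896 CPM in AP_34d and 1.12 and 0.569 CPM in PLA_34d. Replicate 1 of AP_1h, which was also highest in Chac1, held 28 of these reads, and the other libraries held between 2 and 10 reads each. Sesn2 encodes a stress-induced inhibitor of mTORC1. The RefSeq entry of Sesn2, NM_001109358, stood in the table as RGD1566319 and lies outside the rule. It had 86 reads, at 0.477 and 1.34 CPM in RA_0, 0.649 and 0.980 CPM in AP_1h and 0.297 and 0.702 CPM in PLA_1h. At 34 days it was at 2.15 and 1.64 CPM in AP_34d and 2.58 and 1.42 CPM in PLA_34d. Replicate 2 of PLA_34d, the lowest library of 34 days, held 10 reads, and replicate 2 of RA_0 held 9. No difference was tested.

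The second group is that of amino acid synthesis. Asns makes asparagine, and Phgdh and Psat1 catalyse the first steps of serine synthesis. All 3 were near the floor of detection, with 150, 113 and 138 reads in all. Asns (NM_013079, rn4 chromosome 4, 32758868 to 32776220, minus strand) was at 0.954 and 1.34 CPM in RA_0, 2.27 and 0.420 CPM in AP_1h, 2.08 and 1.58 CPM in PLA_1h, 1.37 and 1.49 CPM in AP_34d and 6.17 and 1.56 CPM in PLA_34d. Apart from replicate 1 of PLA_34d, no library exceeded 2.27 CPM. Phgdh (NM_031620, rn4 chromosome 2, 193147943 to 193177137, minus strand) was at 1.19 and 1.78 CPM in RA_0, 0.973 and 0.280 CPM in AP_1h, 1.39 and 0.175 CPM in PLA_1h, 0.781 and 0.598 CPM in AP_34d and 6.28 and 0.853 CPM in PLA_34d. Psat1 (NM_198738, rn4 chromosome 1, 219268420 to 219290273, minus strand) was at 0.477 and 2.08 CPM in RA_0, 1.73 and 2.10 CPM in AP_1h, 2.18 and 1.40 CPM in PLA_1h, 1.37 and 1.20 CPM in AP_34d and 4.04 and 1.42 CPM in PLA_34d. All 3 were highest in replicate 1 of PLA_34d, the library with the lymph node markers at 899 CPM.

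Phgdh was lower in AP_34d than in PLA_34d, with a log2 difference of -1.12 ± 0.62 (unadjusted p 0.101, adjusted p 0.878 by limma), and higher in PLA_34d than in PLA_1h by 1.13 ± 0.62 (unadjusted p 0.0986, adjusted p 0.999 by limma). Without replicate 1 of PLA_34d these differences were -0.14 and 0.15. Asns stood 1.00 ± 0.55 higher in PLA_34d than in RA_0, which is a description, and 0.26 higher without that library. The part of lymph node tissue in these values was not tested.

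**Figure D3:**
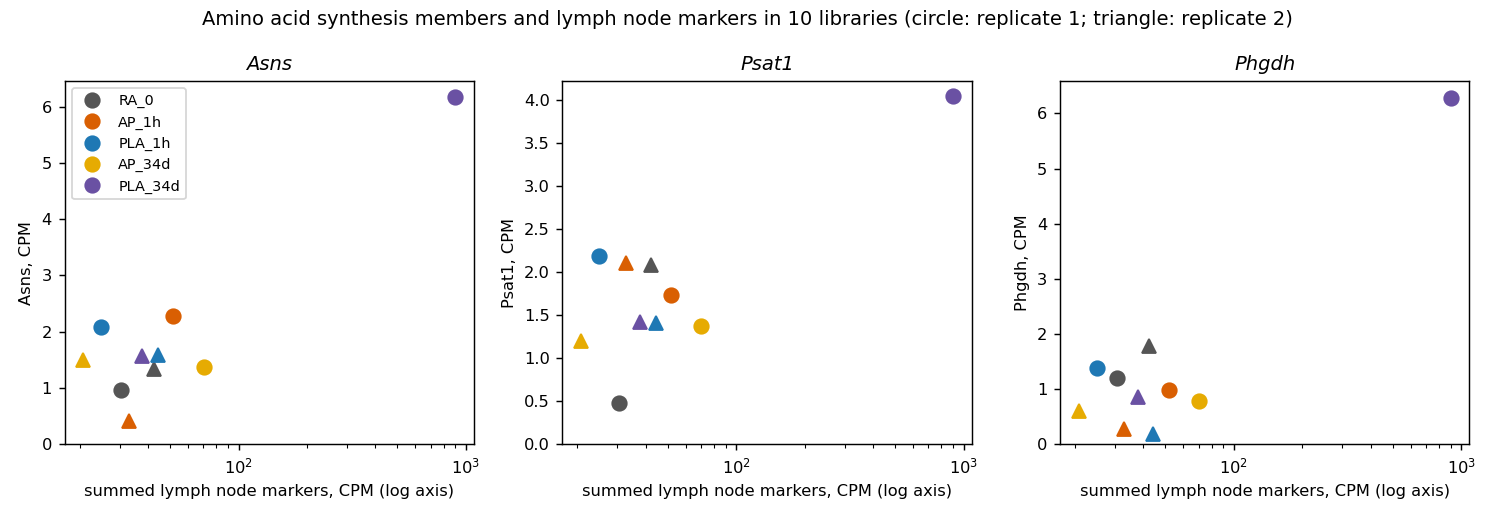
Level of Asns, Psat1 and Phgdh in CPM (vertical axes, from 0) against the summed lymph node markers in CPM (horizontal log axis) in the 10 libraries, coloured by group, with circles for replicate 1 and triangles for replicate 2. The library at 899 CPM of markers is replicate 1 of PLA_34d and is highest in all 3 genes (6.17, 4.04 and 6.28 CPM), while the other 9 libraries lie at 20.8 to 70.3 CPM of markers.

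The members did not move as 1 block. At 34 days, 2 of the 6 members tested beside Chac1 (Ppp1r15a and Atf4) had both AP libraries above both PLA libraries and the other 4 (Atf5, Asns, Psat1 and Phgdh) had them below, so none overlapped, in a comparison where 31.0% of all transcripts did not. The margins were narrow for Asns (1.49 against 1.56 CPM, 10 and 11 reads) and Psat1 (1.37 against 1.42 CPM, 7 and 10 reads). For Phgdh the margin was 0.781 against 0.853 CPM, 4 and 6 reads. Of these 6, Ppp1r15a and Atf5 reached an unadjusted p under 0.05, as 5.47% of transcripts did. The median log2 difference of the 6 was -0.72 against 0.00 for all transcripts. This median includes Asns, Psat1 and Phgdh, which were all highest in replicate 1 of PLA_34d. Without that library the difference of Phgdh was -0.14. At 1 h, 2 of 7 members did not overlap between the arms (Chac1 above, Atf5 below), against 30.6% of transcripts, and the same 2 reached an unadjusted p under 0.05, against 4.04%. In AP_1h against RA_0, Atf5 did not overlap, against 41.6% of transcripts. Phgdh lay below RA_0 there as well and is not counted, since it passed the filter through RA_0 alone. None of the 7 members met the rule of the study in AP_34d against AP_1h (3.34% of transcripts). None of the 6 other than Chac1 met it in PLA_1h against RA_0 (1.67%). The same held for the difference between the arms at 34 days less that at 1 h (3.84%). In PLA_34d against PLA_1h (2.10%) none of the 6 other than Chac1 did. For the difference between the arms at 34 days less that at 1 h, the largest value among the members other than Chac1 was that of Phgdh. It was -1.05 ± 0.88 (unadjusted p 0.262, adjusted p 1.00 by limma), and -0.06 without replicate 1 of PLA_34d. Differences under 1 on the log2 scale ran from -0.88 to 0.82 over these comparisons.

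Over the 10 libraries Chac1 was set against each of the 6 other members that passed the filter. The libraries of RA_0 and PLA_34d, by which Chac1 was chosen, are among the 10, so these correlations are a description without a test. Ppp1r15a gave Pearson's r of 0.76 and Spearman's rho of 0.81. Atf5 gave r of -0.70 and rho of -0.60. Atf4 gave r of 0.43 and rho of 0.52, and Asns, Psat1 and Phgdh gave r between -0.46 and -0.45 and rho of -0.33, -0.56 and -0.35. The 2 libraries farthest from the median of Chac1 were those of PLA_34d. Without them r was 0.76 for Ppp1r15a, -0.53 for Atf5, 0.56 for Atf4, 0.05 for Asns, -0.21 for Psat1 and -0.01 for Phgdh, so the relations with Asns and Phgdh rested on those 2 libraries.

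Of all transcripts tested, 1.03% had a higher r with Chac1 than Ppp1r15a and 15.7% a higher one than Atf4, while 98.2% lay above Atf5; these ranks draw on the same libraries. The libraries of a group share their treatment, so part of each r is the difference between groups. With the group means taken off, r was 0.59 for Ppp1r15a, 0.54 for Atf4 and 0.41 for Atf5, the last with the opposite sign. In all 5 groups the library with more Chac1 also had more Atf4, and in 2 of 5 it had more Ppp1r15a. How many of all transcripts do so was not counted, nor was r with group means taken off set against all transcripts.

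Among the 10259 transcripts, those most like Chac1 over the 10 libraries by Pearson's r were Ltbr (the lymphotoxin beta receptor, 0.95), Porcn (the acyltransferase that lipidates Wnt proteins, 0.92), Brms1 (0.91), Grwd1 (0.91) and Arf4 (a GTPase of Golgi traffic, 0.90). Most opposite were Slc8a1 (the sodium-calcium exchanger of the plasma membrane, -0.92), Raph1 (-0.91) and Fam210b (-0.91). They were picked for this likeness, so r is a description. Over all transcripts r with Chac1 had a median of -0.02 and 5th and 95th percentiles of -0.61 and 0.62. Their own range was narrower than that of Chac1: Ltbr ran from 29.0 CPM (PLA_34d, replicate 2) to 58.0 CPM (AP_34d, replicate 1), and Slc8a1 from 4.97 CPM (AP_1h, replicate 1) to 22.2 CPM (PLA_34d, replicate 2).

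**Figure D4:**
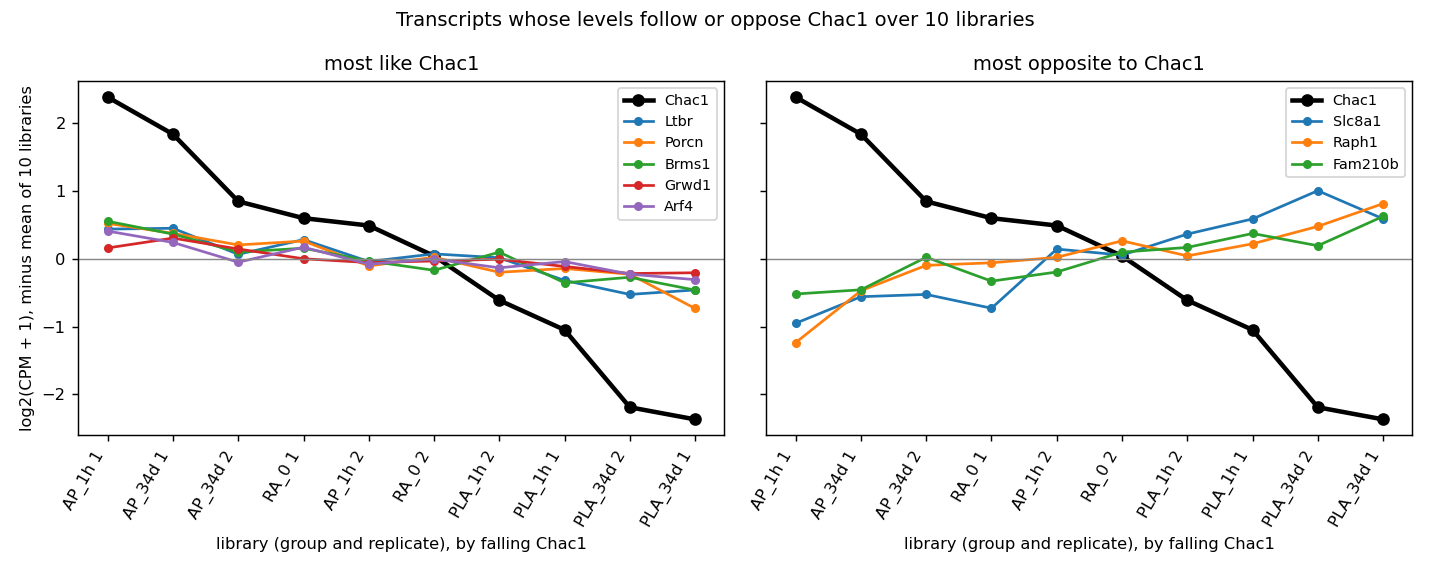
Level as log2(CPM + 1) less its own mean over 10 libraries (vertical axis) of Chac1 (black) and of the 5 transcripts most like it (left) and the 3 most opposite (right), with the libraries ordered by falling Chac1 (horizontal axes). The left lines tend downwards and the right lines upwards from AP_1h replicate 1 to PLA_34d replicate 1, over a narrower range than Chac1.

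Further genes of the pathway were read from 7 lists. limma, edgeR and limma-voom called 0 of their 1104 tests over the 8 comparisons, DESeq2 called 1 (0.0906%, beside 0.529% of all transcripts), and 55 (4.98%) reached an unadjusted p under 0.05, beside 4.77% of all transcripts. The genes named below met the rule of the study, and none passed the adjustment in limma, where their adjusted p ran from 0.281 (Glrx) upwards. Comparisons of PLA_34d with RA_0 are a description here too.

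Of 20 kinases, eIF2, eIF2B and phosphatase subunits tested, Dnajc3, Eif2ak3 and Eif2a met the rule of the study. Dnajc3, the co-chaperone P58IPK that restrains the eIF2 kinases, was at 39.8 and 58.6 CPM in AP_34d and at 20.2 and 21.2 CPM in PLA_34d (log2 difference 1.19 ± 0.32, unadjusted p 0.00362, adjusted p 0.846 by limma). Eif2ak3, the kinase PERK of the endoplasmic reticulum, was higher in PLA_34d than in PLA_1h by 1.32 ± 0.54, and by 0.49 without replicate 1 of PLA_34d. Eif2a, an initiation factor that is not a subunit of eIF2, was at 84.6 and 77.7 CPM in AP_34d and at 38.3 and 47.3 CPM in PLA_34d, and met it in the difference between the arms at 34 days less that at 1 h (1.12 ± 0.40, unadjusted p 0.0182, adjusted p 1.00 by limma). In AP_34d against PLA_34d 14 of the 20 were higher, with a median of 0.37 against 0.00 for all transcripts. Muscle fibre markers were higher in the same comparison in 9 of 10 transcripts (median 0.45), and the 5 lymph node markers tested were all lower (median -3.00, with 3 meeting the rule of the study). Their part in the medians of this and the other lists was not tested. Of 12 partners and other transcription factors, Atf3 was higher in AP_1h than in PLA_1h (37.6 and 29.0 against 18.4 and 8.60 CPM, 1.32 ± 0.47), Nupr1 in AP_34d than in PLA_34d (32.8 and 10.8 against 8.08 and 7.25 CPM, 1.20 ± 0.52), Nfe2l1 in PLA_1h than in RA_0 (1.07 ± 0.39) and Creb3l2 in AP_34d than in AP_1h (1.02 ± 0.44). Without replicate 1 of AP_34d the value of Nupr1 was 0.44, and without replicate 2 that of Creb3l2 was 0.38. In AP_1h against PLA_1h 1 of the 12 met the rule of the study with a higher and 1 with a lower level, where 2.62% of all transcripts met it. Nfe2l1 was at 249 and 221 CPM in AP_1h and at 564 and 415 CPM in PLA_1h.

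Of 38 other ATF4 targets tested, Sqstm1, the autophagy receptor p62, was at 1405 and 1456 CPM in AP_34d and at 440 and 635 CPM in PLA_34d (log2 difference 1.43 ± 0.46, unadjusted p 0.0104, adjusted p 0.846 by limma); it overlaps a second Sqstm1 transcript, and reads that fit both were dropped. Vldlr, a lipoprotein receptor, was higher in AP_34d than in AP_1h by 1.13 ± 0.34, and Stc2, a secreted glycoprotein, was at 1.76 and 1.94 CPM in AP_34d and at 6.68 and 4.46 CPM in RA_0 (-1.18 ± 0.35). Mthfd2, of mitochondrial one-carbon metabolism, was at 12.3 and 1.28 CPM in PLA_34d, again highest in replicate 1, and at 0.239 and 0.743 CPM in RA_0. The median of the 38 in AP_34d against PLA_34d was 0.25, with 24 higher, and in AP_1h against PLA_1h -0.04, with 18 higher.

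Of 18 genes of the IRE1 and ATF6 arms of the unfolded protein response, Ern1, which encodes the sensor IRE1 itself, was at 11.3 and 20.5 CPM in AP_34d and at 3.57 and 4.48 CPM in AP_1h (log2 difference 1.70 ± 0.36, unadjusted p 0.000733, adjusted p 0.584 by limma). It is the 1 list gene called by DESeq2 (adjusted p 0.0152, lowest of a range from 0.0152 to 1), in a comparison where DESeq2 called 0.409% of transcripts. Dnajc3 is in this list too. Dnajb9, a chaperone cofactor, was higher in AP_34d than in RA_0 by 1.04 ± 0.36. Of 22 transcripts of glutathione synthesis, recycling and breakdown, the pathway in which CHAC1 acts, Glrx (glutaredoxin) was at 22.2 and 47.6 CPM in AP_1h and at 7.87 and 13.7 CPM in RA_0 (1.56 ± 0.43), Gsta4, a glutathione transferase, was at 0.757 and 0.280 CPM against 3.82 and 2.67 CPM there (-1.49 ± 0.43), Gsr (glutathione reductase) was higher in AP_34d than in AP_1h by 1.25 ± 0.33, and Gpx7 was lower in PLA_34d than in RA_0 (-1.02 ± 0.42, a description). In AP_1h against PLA_1h 1 of the 22 met the rule of the study with a higher and 1 with a lower level, where 2.62% of all transcripts met it. Glrx was at 10.3 and 13.2 CPM in PLA_1h. Gsr was at 23.5 and 14.1 CPM in AP_1h and at 37.7 and 38.3 CPM in PLA_1h. In AP_34d against PLA_34d 17 of the 22 were higher, with a median of 0.22 against 0.00 for all transcripts, beside medians of 0.45 for the muscle fibre and -3.00 for the lymph node markers.

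Of 14 Notch receptors, ligands and targets, Notch3 was at 33.5 and 17.1 CPM in AP_1h and at 48.9 and 76.9 CPM in RA_0 (-1.32 ± 0.43), Nrarp, a target of the pathway, was lower in PLA_1h than in RA_0 (-1.20 ± 0.47), and Notch1 was higher in PLA_34d than in PLA_1h by 1.03 ± 0.41, or 0.58 without replicate 1 of PLA_34d. Between the arms the median of this list was -0.07 at 1 h and 0.06 at 34 days, and none met the rule of the study. Against RA_0 it was -0.56 in AP_1h, -0.50 in PLA_1h, -0.39 in AP_34d and, as a description, -0.11 in PLA_34d, with medians of all transcripts between -0.01 and 0.00. Of 14 sestrins, tribbles and mTORC1 regulators, Trib2 was lower in AP_34d than in PLA_34d (-1.24 ± 0.45, and -0.70 without replicate 1 of PLA_34d). Tsc1 was higher in AP_34d than in AP_1h by 1.16 ± 0.40 (0.55 without replicate 2 of AP_34d), and Trib1 was lower in PLA_1h than in RA_0 (-1.03 ± 0.38). Sesn3, as a description, was at 60.8 and 27.0 CPM in PLA_34d against 5.25 and 15.4 CPM in RA_0. It was at 6.45 and 21.4 CPM in AP_34d. In AP_34d against PLA_34d 2 of the 14 met the rule of the study, both with a lower level, where 3.57% of all transcripts met it.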

How the data were processed

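Muscle beneath the skin was taken by the authors from 10 rats, and polyadenylated RNA was sequenced (TruSeq v2 library kit, Illumina). Per the submitters' processing notes the tools were CASAVA 1.8.2, cutadapt 1.2.1, Bowtie2 2.1.0, HTSeq 0.5.4p3 and edgeR 3.4.2, with genome build rn4. The deposited signal per transcript and library is CPM scaled with TMM factors, and reads were recovered from it as whole multiples of what 1 read is worth (100% of values within 0.01 reads). Whether counting used strand is not given in the sources used here. Coordinates are those of rn4, counted from 1, and the promoters those of GRCr8. No reference genome and no protein sequences were used here.

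The members and gene lists were chosen with earlier results of these data known. A limma model (lmFit, eBayes with trend, 5 residual and 5.14 prior degrees of freedom) with 1 mean per group was fitted to log2(CPM + 1) over all 10 libraries and the 10259 transcripts (59.6%) that reached 1 CPM in each library of some group, so that a fold change on this scale understates that of low transcripts. Benjamini-Hochberg adjusted p under 0.05 over all of them was a call. With 2 against 2 an exact permutation test cannot go below 0.333, so none was run per gene; p-values measure the spread between animals, of which each group has 2. All members are named, with their difference, SE and p where it reached 1 on the log2 scale or met the rule of the study. Up to 4 genes per list are named by smallest unadjusted p over the pairs of groups among those meeting that rule. Each of these is given for the pair with its smallest p, so it may have met the rule in another pair too. A permutation test of the correlations with Chac1 was planned, and its p-values are not given because the libraries that chose the gene enter it. Alternatives were pseudocounts of 0.25 and 4, other filters (none, or a mean of at least 5 CPM) and scalings, limma-voom (the test of the study), edgeR's quasi-likelihood test and DESeq2 on recovered reads, the compared groups alone, no trend, a block for replicate number and each library left out. The fits were tested on simulated data. The fits ran in R 4.3.3 with DESeq2 1.42.0, edgeR 4.0.16 and limma 3.58.1.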

Additional observations from a re-analysis of the deposited data

Results flagged for a closer look

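Chac1 and Ppp1r15a drew attention because at 34 days every library under acupuncture lay above both libraries taken before therapy and every library under placebo lay below them. The log2 difference between the arms was 3.62 for Chac1, which was chosen by its level in PLA_34d, and 1.34 for Ppp1r15a, whose adjusted p was 0.846 by limma. That the 2 arms moved apart from RA_0 in opposite directions was not itself tested. The pattern held for 1.40% of all transcripts. Groups of 2 libraries are too small to single out an outlying library by its distance from the others.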

How the results depend on the processing

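Eif2a aside, none of the differences named with a value of 1 or more changed sign under any alternative run. The value of Eif2a was not followed over the alternatives. DESeq2 called 1 member by adjusted p in AP_1h against RA_0 (Atf5) and 1 in AP_1h against PLA_1h (Chac1), where limma called 0, and 1 list gene (Ern1). Members other than Chac1 that met the rule of the study in AP_34d against PLA_34d numbered 1 by limma and 2 under quantile normalization, edgeR or DESeq2; with single libraries left out the number ran from 0 (without replicate 2 of AP_34d) to 2 (without either library of PLA_34d). Leaving out libraries moved the number from 1 to 2 in AP_1h against PLA_1h (without replicate 2 of AP_1h), from 0 to 1 in AP_34d against AP_1h (without replicate 1 of AP_1h), from 0 to 2 in PLA_34d against PLA_1h (without replicate 2 of PLA_34d) and from 0 to 1 in the difference between the arms at 34 days less that at 1 h. The cause was not tested. With group means taken off, r with Chac1 changed sign for Asns (0.38), Phgdh (0.066) and Atf5 (0.41). The fit with a replicate block left the calls by adjusted p at 0 and the members meeting the rule at 1 in AP_1h against RA_0, in AP_1h against PLA_1h and in AP_34d against PLA_34d. The numbers name separate animals, and same-numbered libraries correlated between -0.46 and 0.45 over the 10 pairs of groups. With 2 animals a group and members such as Asns, Phgdh and Psat1 at a few reads per library, small differences were not detectable.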
